A study of Mus musculus with 160 samples.

Results

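Interferon-stimulated genes are the genes that cells switch on when interferon, a cytokine released on viral infection, binds its receptor. A panel of such genes was chosen by name, and each name was matched to the gene identifiers of the deposited tables. The 37 names stand for 36 genes, because Ddx58 and Rigi are names of the same gene (here Rigi), out of 56980 gene identifiers in the tables. The rule itself names no measured value, but the members and the gene lists used below were chosen with earlier results of these data known. All 36 had enough reads to be tested in each tissue. The data were bulk poly(A) RNA sequencing libraries from 35 male mice of 4 inbred strains (SJL, DBA/2J, A/J and C57BL/6J), labelled with no engineered allele. All mice ate chow until 12 weeks of age and were then fed for 6 weeks on a rodent form of a human diet, labelled Vegan, Vegetarian, Mediterranean or American, up to 18 weeks of age. The diets matched each other in calories and macronutrients and differed in the foods the nutrients came from, and no mouse stayed on chow, so there is no group without a diet change. Liver, quadriceps muscle, brown adipose, subcutaneous adipose and visceral adipose tissue were sequenced from 2 mice per strain and diet, which gives 8 libraries per strain and tissue, 32 per tissue and 160 in all, and 29 of the mice gave all 5 tissues. The total count of a library lay between 18.6 and 29.9 M (M, mega) for liver, 20.5 and 54.8 M for visceral fat, 18.9 and 38.7 M for subcutaneous fat, 18.0 and 28.4 M for brown fat, and 20.0 and 30.4 M for muscle.

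Type I interferon acts through a receptor pair and the kinases Jak1 and Tyk2, which phosphorylate Stat2. Stat2 and Irf9 are parts of a complex that binds the interferon-stimulated response element (ISRE) in the promoters of its target genes. Interferon gamma acts through a separate receptor and leads to binding at the gamma-activated site. The targets include proteins that bind or degrade viral RNA (the Ifit and Oas families), GTPases that trap viral particles (Mx1 and Mx2), the ubiquitin-like protein Isg15 with its removing enzyme Usp18 and its ligase Herc6, sensors of foreign RNA or DNA (Rigi, Ifih1, Dhx58 and Zbp1), and GTPases that attack the vacuoles of intracellular pathogens (Gbp2, Gbp3, Gbp7, Igtp and Iigp1). Irf7, Irf9 and Stat2 are factors of the pathway and also its targets, so the pathway amplifies itself. In uninfected tissue these genes keep a low, tonic level that depends on small amounts of interferon, and resident macrophages and lymphocytes express many of them.

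Many promoters of the group, but not all, hold a match to the element that the interferon-activated complex binds. Stretches that carry it are shown because most members have this match in common. The core GAAANNGAAA was searched on both strands from 250 bases before to 50 bases after each start site in the C57BL/6J reference (GRCm39). Start sites were those of the Ensembl canonical transcripts in GENCODE vM39. It was found in 20 of the 36 members (55.6%), and in 829 of 21618 promoters of the same length (3.83%). Each sequence reads 5′ to 3′ along the strand of its gene, and capitals mark the match, or the run of overlapping matches, on either strand for which the stretch was chosen. Further matches near the ends of the Ifit1 and Usp18 stretches run past them and are left in lower case.
Isg15: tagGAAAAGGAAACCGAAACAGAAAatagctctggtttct
Bst2: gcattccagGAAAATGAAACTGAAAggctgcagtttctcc
Zbp1: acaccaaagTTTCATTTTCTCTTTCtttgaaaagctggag
Ifit1: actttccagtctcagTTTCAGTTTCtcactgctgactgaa
Ifit3: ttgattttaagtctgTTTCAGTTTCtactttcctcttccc
Ifit3b: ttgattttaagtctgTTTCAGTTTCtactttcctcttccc
Stat2: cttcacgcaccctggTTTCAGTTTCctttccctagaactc
Usp18: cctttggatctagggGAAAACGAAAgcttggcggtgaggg
Oas3: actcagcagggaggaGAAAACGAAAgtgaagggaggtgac
Oas2: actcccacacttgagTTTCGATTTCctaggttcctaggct
Rsad2: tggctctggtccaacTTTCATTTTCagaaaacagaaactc
The stretches of Isg15 (chr4:156285317-156285356, minus strand), Bst2 (chr8:71990216-71990255, minus strand) and Zbp1 (chr2:173060737-173060776, minus strand) hold overlapping matches in tandem. Those of Ifit3 (chr19:34560792-34560831, plus strand) and its tandem copy Ifit3b (chr19:34585188-34585227, plus strand) are identical over all 40 bases. Ifit1 (chr19:34618189-34618228, plus strand) and Stat2 (chr10:128106130-128106169, plus strand) have the same 10 capital letters as that pair in different surroundings. Usp18 (chr6:121222791-121222830, plus strand) and Oas3 (chr5:120915775-120915814, minus strand) likewise share one form of the core. Oas2 (chr5:120887965-120888004, minus strand) has a form of its own among those shown. The 10 capital letters of Rsad2 (chr12:26506547-26506586, minus strand) also open the match of Zbp1 and, read on the other strand, that of Bst2. The gamma-activated site TTCNNNGAA was found in 7 members (19.4%) and in 1913 of all promoters (8.85%). A match is a run of letters and not a measured binding site, and windows without one, such as those of Irf7, Mx1, Xaf1 and Igtp, say only that these letters are not within the window.

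**Figure D1:**
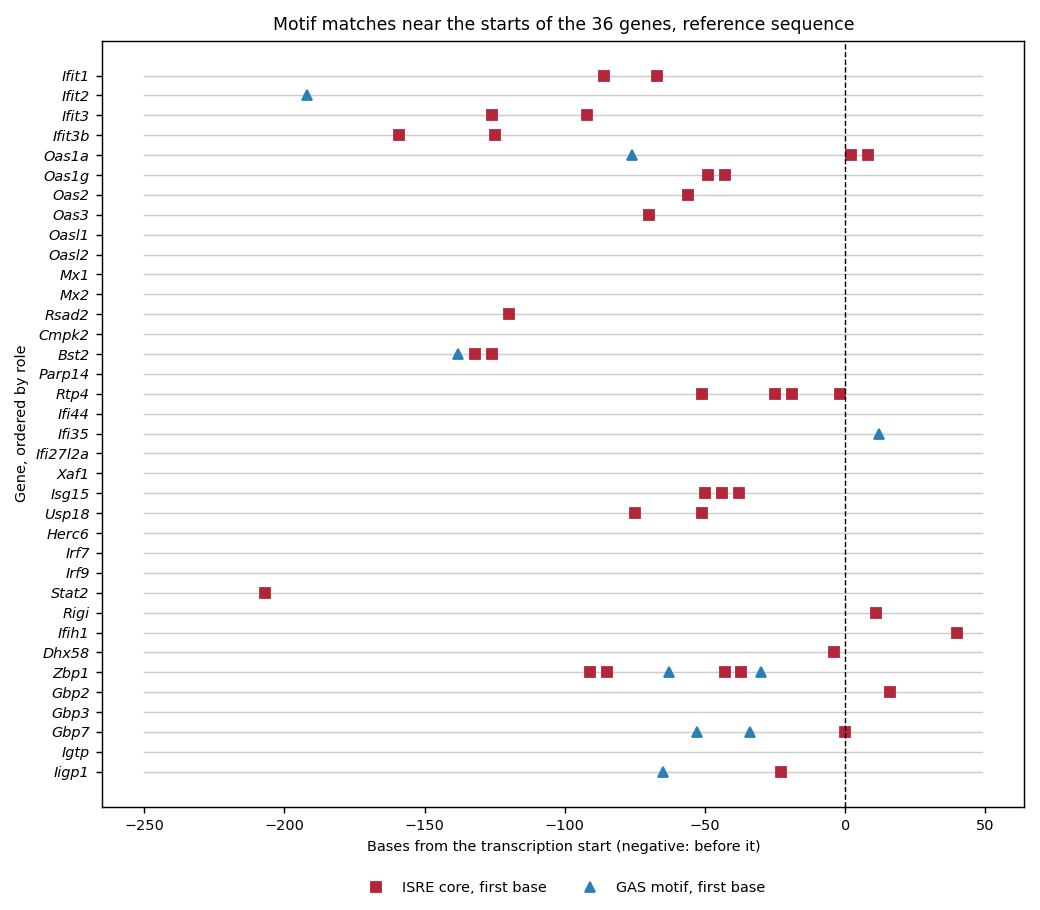
Positions of the ISRE core (squares) and the gamma-activated site (triangles) in the promoter windows of the members, in bases from the start site (x axis), 1 gene per line. The core was found in 20 of 36 members and lies before the start site in most of them.

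Some libraries carried RNA of another tissue, and this bears on the results because the members differ between tissues. Libraries outside liver were set apart where Alb, the hepatocyte albumin gene, exceeded 10% of its mean in liver, or where a marker of the labelled fat depot was under 10% of its median there (Wt1 in visceral, Hoxc10 in subcutaneous fat). This held for 8 muscle, 4 brown fat, 5 subcutaneous and 10 visceral libraries, with Alb up to 42.8%, 21.4%, 54.4% and 62.2% of the liver mean. One visceral library, of an SJL mouse on the American diet, had 16.3 CPM of Hoxc10 and none of Wt1, where CPM is a count scaled to 1 M counts per library. The subcutaneous library of an A/J mouse on the Mediterranean diet had only 0.291 CPM of Hoxc10. The counts of members called for a strain are given below with and without them, while the split of those counts by role uses all libraries. In bulk tissue, fewer cells of a type and less RNA per cell cannot be told apart.

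Levels of different genes were compared in TPM, a share of a library's transcripts that accounts for gene length. Subcutaneous fat had the highest mean for 34 of the 36 members over its 32 libraries, and liver for the other two, the virus tether Bst2 (311 TPM against 196 in subcutaneous fat) and the GTPase Iigp1 (131 against 58.3 TPM). The median member stood at 22.6 TPM in subcutaneous fat, 12.5 in visceral fat, 6.64 in liver, 5.67 in brown fat and 4.38 in muscle. Ifi27l2a, a small membrane protein of mitochondria and nuclear envelope, was the most abundant member of the fat depots, at a mean of 6068 TPM in subcutaneous, 4807 in visceral and 744 in brown fat, against 27.0 in liver and 173 in muscle. Isg15 averaged 45.5 TPM in subcutaneous fat and 10.99 in muscle, and Irf7 averaged 47.3 and 9.73. Oas3, which makes the 2′-5′ oligoadenylate that activates RNase L, was the lowest member of liver (0.495 TPM), muscle (0.483), brown fat (0.187) and visceral fat (0.709). The subcutaneous libraries also held the most lymphocyte RNA, with a median sum of 5 B-cell markers of 277 to 730 CPM by strain. The tissue with the highest member levels was thus also the one with the most lymphocyte RNA. The part of immune cell content in the order of tissues was not tested.

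Strain differences were tested in each tissue with edgeR's quasi-likelihood test on the counts, with diet in the model and adjusted p-values (Benjamini-Hochberg, under 0.05 to be called) over all genes. The share of all genes called gives the background. Where libraries of a strain are said below not to overlap the others, the share of all genes that do so is not given. Over the 4 strains, 27 members were called in liver (background 53% of genes), 31 in muscle (45.5%), 32 in brown fat (56.8%), 20 in subcutaneous fat (65.6%) and 28 in visceral fat (40.1%). The members' share was therefore above the background in 4 tissues and below it in subcutaneous fat. Without the libraries holding another tissue, 35 members were called in muscle, 30 in brown fat, 16 in subcutaneous fat and 28 in visceral fat. The direction was then read from the difference between 1 strain and the average of the other 3, in log2 units with the standard error (SE). The 4 such comparisons of a tissue share libraries, so a strain that is high makes the other 3 look lower.

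**Figure D2:**
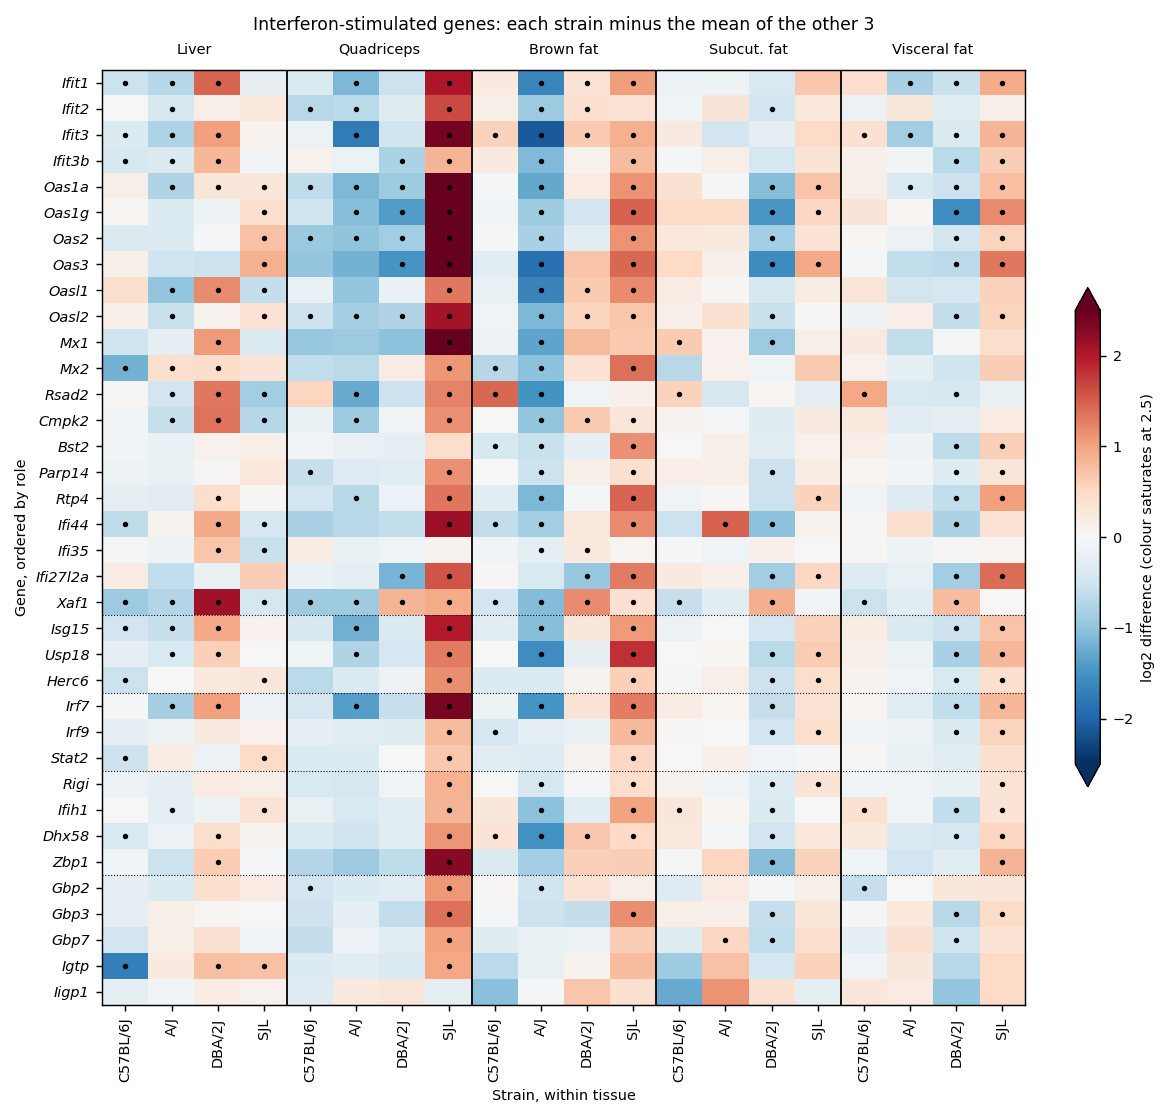
Log2 difference of each strain from the mean of the other 3 (colour) for the 36 members (lines) in the 5 tissues (blocks of 4 strains), with dots where the adjusted p is under 0.05. SJL is high for 33 members in muscle and 27 in brown fat, DBA/2J for 19 in liver, and A/J is low for 27 in brown fat.

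In quadriceps muscle SJL stood above the other strains across the whole group. Of the 36 members, 33 were higher in SJL and none lower (background 20.9% of all genes higher), 35 had a difference above 0, and the median difference was 1.27. All 3 members of the ISG15 system, all 3 factors and all 4 sensors were called, with 19 of 21 effectors and 4 of 5 GTPases, and the median was 1.58 for effectors, 1.30 for the ISG15 system, 1.00 for GTPases, 0.99 for sensors and 0.79 for factors. Only Bst2 (0.45), Ifi35 (0.08) and Iigp1 (−0.23) were not called. A/J was lower for 14 members (background 6.08% lower), with a median of −0.68, in a comparison that has SJL among the other 3 strains. Without the 8 libraries holding liver RNA, 35 members were higher in SJL, with a median of 1.62 and all 36 above 0, and A/J was lower for 11.

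Members of the Oas family were among the largest differences in muscle. Oas3 ran from 0.273 to 7.01 CPM in SJL (median 4.09), from 0.102 to 0.692 in C57BL/6J (median 0.390), from 0.161 to 0.675 in A/J (median 0.244) and from 0.122 to 0.615 in DBA/2J (median 0.214). One SJL library lay within the range of the other strains and the rest above it, and the difference was 3.61 (SE 0.32, n = 8, adjusted p = 5.59e-10, edgeR). Oas1a, a synthase of the same product, ran from 2.18 to 11.7 CPM in SJL (median 8.26), and its highest values elsewhere were 2.09 in C57BL/6J, 1.51 in A/J and 2.27 in DBA/2J. Its difference was 2.66 (SE 0.19, adjusted p = 3.18e-12, edgeR), and the lowest SJL library again fell just within the DBA/2J range. Oas2 was at 4.41 to 31.0 CPM in SJL (median 21.0), with medians of 2.58 in C57BL/6J, 3.03 in A/J and 2.91 in DBA/2J, a difference of 2.81 (SE 0.21).

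Ifit3, a partner of Ifit1 in binding viral RNA, separated 3 levels in muscle. Its medians were 20.0 CPM in SJL (range 5.46 to 38.1), 4.74 in C57BL/6J (3.81 to 9.77), 4.10 in DBA/2J (2.81 to 8.05) and 2.35 in A/J (1.41 to 4.08). SJL was higher by 2.39 (SE 0.21, adjusted p = 5.27e-10, edgeR) and A/J lower by −1.74 (SE 0.26, adjusted p = 1.89e-05, edgeR). C57BL/6J exceeded A/J by 1.19 (SE 0.30, adjusted p = 0.00448, edgeR) in the pairwise test, so the strains below SJL were not alike for this gene. Mx1, a nuclear GTPase that blocks influenza viruses, ran from 0.773 to 8.48 CPM in SJL (median 5.97), and the highest values elsewhere were 1.54 in C57BL/6J, 1.29 in A/J and 1.78 in DBA/2J. The difference was 2.88 (SE 0.31, adjusted p = 1.26e-08, edgeR). Mx2, its relative, was higher by only 1.10 (SE 0.36, adjusted p = 0.0162, edgeR), with an SJL range of 1.55 to 6.58 CPM that lay within that of DBA/2J (0.944 to 7.21). Ifi27l2a ran from 39.7 to 106 CPM in SJL, a difference of 1.57.

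Among the regulators, Irf7, the factor that amplifies type I interferon production, ran from 5.001 to 56.3 CPM in SJL muscle (median 32.7). It reached 18.5 CPM in C57BL/6J (median 6.64), 10.01 in A/J (median 4.58) and 21.5 in DBA/2J (median 6.63). The difference was 2.37 (SE 0.30, adjusted p = 3.47e-07, edgeR), and each of those 3 highest libraries was among the ones with liver RNA, with Alb at 25.1%, 19.4% and 42.8% of the liver mean. Isg15 ran from 2.09 to 11.01 CPM in SJL (median 7.32), with medians of 1.81 in C57BL/6J, 1.33 in A/J and 1.62 in DBA/2J and a difference of 1.98 (SE 0.24, adjusted p = 1.77e-07, edgeR). For Irf7, Isg15, Oas3 and Mx1 no pair among C57BL/6J, A/J and DBA/2J was called in muscle, with adjusted p-values of 0.237 or more (edgeR). Zbp1, a sensor of left-handed nucleic acid, was at 3.23 to 10.9 CPM in SJL (median 7.44), a difference of 2.28 (SE 0.28, adjusted p = 1.44e-07, edgeR). Stat2 was the least changed of the 3 factors, higher by 0.67 (SE 0.24, adjusted p = 0.0288, edgeR). Gbp2, a guanylate-binding protein, was one of the members whose SJL libraries did not overlap the rest, at 17.5 to 25.8 CPM against at most 12.6 in C57BL/6J, 17.3 in A/J and 14.9 in DBA/2J, and the immunity-related GTPase Igtp was higher by 0.97 (SE 0.18).

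Macrophage RNA moved with this result. The sum of 5 macrophage markers (Csf1r, Adgre1, C1qa, C1qb and Cd68) had a median of 293 CPM in SJL muscle, within 216 to 359, against medians of 126 in C57BL/6J, 138 in A/J and 118 in DBA/2J, and all 5 markers were higher in SJL. The 5 T-cell markers summed to medians of 5.17 CPM in SJL, 4.79 in C57BL/6J, 0.963 in A/J and 0.604 in DBA/2J, and 5 of 5 were higher in SJL. With the mean log2 level of the macrophage markers as a covariate, 17 members were called over the 4 strains and 11 were higher in SJL, 35 had a difference above 0, and the median was 1.45. Without the covariate 33 were higher in SJL and the median was 1.27. The share of all genes called in the covariate fit is not given here, so its counts have no background beside them. Under that covariate Ifit3 (2.31) and Mx1 (2.78) kept their calls, whereas Oas3 (1.70, adjusted p = 0.204), Irf7 (1.84, adjusted p = 0.190), Isg15 (1.63, adjusted p = 0.127) and Zbp1 (2.05, adjusted p = 0.0804) did not by edgeR. The difference of Ifi27l2a was then 0.38 (adjusted p = 0.581, edgeR). Every SJL library had a higher macrophage sum than any A/J (at most 154.5 CPM) or DBA/2J library (at most 140.3 CPM). The C57BL/6J Mediterranean mouse 7 had a sum of 294.5 CPM, within the SJL range, and its median over members of log2(CPM + 0.5) was −0.48 from the tissue mean, within the range of the C57BL/6J libraries.

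**Figure D3:**
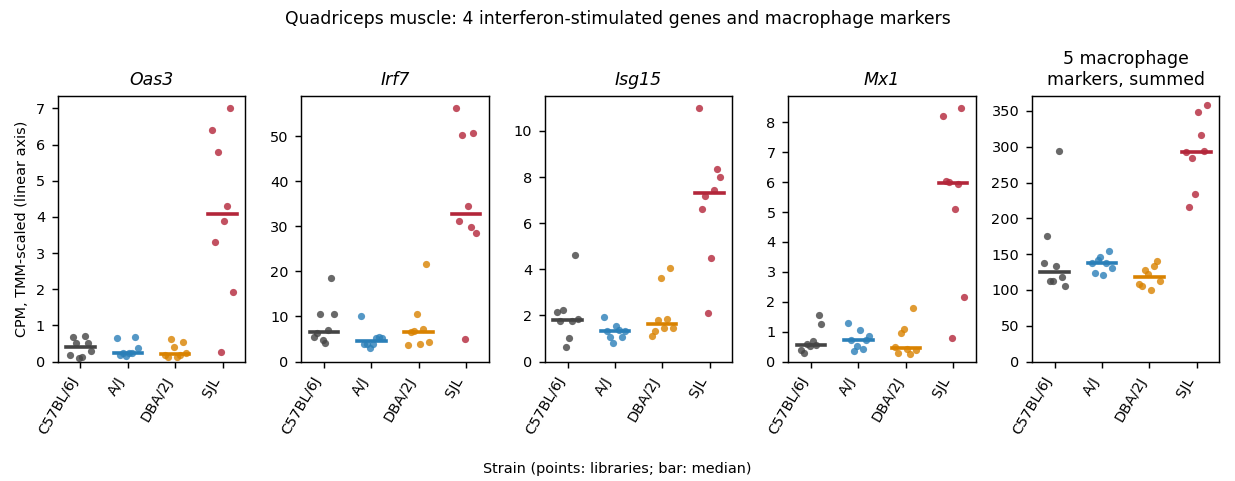
CPM of Oas3, Irf7, Isg15 and Mx1 and of the 5 macrophage markers summed, in each of the 32 muscle libraries by strain (linear axes). Most SJL libraries lie above nearly all others for the 4 genes. For each gene the lowest SJL library lies within the range of the other strains (0.273 CPM for Oas3). The macrophage sum is also high in SJL (216 to 359 CPM), with the C57BL/6J Mediterranean mouse 7 at 294.5 CPM.

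In liver the highest strain was DBA/2J. There 19 members were higher and none lower (background 14.6% higher), 30 of 36 lay above 0, and the median was 0.42. The called members were 13 of the 21 effectors, 2 of the ISG15 system, 2 sensors, 1 factor and 1 GTPase. A/J was lower for 14 members (background 13.9% lower; median −0.34) and C57BL/6J for 11 (background 12.7% lower; median −0.21). SJL was divided, with 9 members higher (background 16.5%) and 6 lower (background 13.6%). The rule for libraries holding other tissue was not applied to liver. The 5 macrophage markers summed to medians of 186 CPM in DBA/2J, 197 in C57BL/6J, 178 in A/J and 219 in SJL, so they were not highest in DBA/2J.

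Of the liver members that were higher in DBA/2J, Ifit1, Rsad2, Cmpk2, Irf7 and Xaf1 showed no overlap with the other strains. How many of all liver genes separate in this way is not given here. Ifit1, which binds viral RNA that lacks the host cap modification, ran from 13.9 to 25.9 CPM in DBA/2J (median 17.6), from 5.55 to 7.78 in C57BL/6J (median 6.50), from 4.54 to 8.89 in A/J (median 5.51) and from 5.48 to 9.75 in SJL (median 7.80). The DBA/2J libraries all lay above the others, by 1.46 (SE 0.11, adjusted p = 1.69e-12, edgeR). Rsad2, the radical enzyme viperin, which makes a chain-terminating nucleotide, ran from 11.2 to 17.7 CPM in DBA/2J and reached 8.76 in C57BL/6J, 7.28 in A/J and 6.58 in SJL, a difference of 1.31 (SE 0.09, adjusted p = 5.78e-13, edgeR). Cmpk2, a nucleotide kinase whose gene lies beside Rsad2 on chromosome 12 (Rsad2 at 26492745 to 26506451, Cmpk2 at 26519203 to 26529836, GRCm39), ran from 8.87 to 14.6 CPM in DBA/2J against at most 7.38 elsewhere and was higher by 1.35 (SE 0.14). Irf7 ran from 44.0 to 68.1 CPM in DBA/2J, above the highest values of 39.2 in C57BL/6J, 26.1 in A/J and 40.6 in SJL, a difference of 1.02 (SE 0.11, adjusted p = 1.25e-08, edgeR). Isg15 overlapped, at 9.87 to 20.7 CPM in DBA/2J and 7.22 to 11.6 in SJL, and was higher by 0.94 (SE 0.12, adjusted p = 2.43e-07, edgeR). Mx1 was at 1.46 to 3.41 CPM in DBA/2J, with a median of 2.92 against 1.24 to 1.27 in the other strains, a difference of 1.07 (SE 0.17).

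Several liver members were not highest in DBA/2J. The neighbouring synthase genes Oas2, Oas3, Oas1g and Oas1a, on chromosome 5 between 120868398 and 121046449 (GRCm39), all had their highest mean in SJL, although Oas1a was called in both strains (0.30 in DBA/2J and 0.31 in SJL). Oas3 ran from 1.36 to 3.57 CPM in SJL (median 2.24) and from 0.288 to 1.56 in DBA/2J (median 1.12), and was higher in SJL by 0.89 (SE 0.19, adjusted p = 0.00047, edgeR). Oas2 was higher in SJL by 0.72 (SE 0.24, adjusted p = 0.0242, edgeR), while in DBA/2J its difference was −0.02. Stat2 was higher in SJL by 0.48 (SE 0.12) and lower in C57BL/6J by −0.52 (SE 0.12). In the opposite direction, the members lower in SJL liver were Oasl1, Rsad2, Cmpk2, Ifi44, Ifi35 and Xaf1. For Rsad2 the SJL libraries were at 3.60 to 6.58 CPM, a difference of −0.87 (SE 0.10, adjusted p = 8.40e-08, edgeR). Gbp2, Gbp3, Bst2, Rigi, Irf9 and Iigp1 were not called for DBA/2J in liver, and Iigp1 had medians of 284 to 359 CPM in the 4 strains.

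The GTPase genes Igtp and Mx2 were low in C57BL/6J liver. Igtp ran from 25.2 to 29.2 CPM in C57BL/6J, from 38.4 to 158 in A/J (median 60.8), from 76.5 to 116 in DBA/2J (median 98.7) and from 71.1 to 214 in SJL (median 88.0). C57BL/6J did not overlap the other strains and was lower by −1.70 (SE 0.21, adjusted p = 3.21e-07, edgeR), and no pair among the other 3 strains was called (adjusted p of 0.249 or more, edgeR). Mx2 had a median of 5.51 CPM in C57BL/6J (range 1.81 to 9.59) against 11.5 in A/J (9.01 to 15.7), 12.9 in DBA/2J and 12.0 in SJL, a difference of −1.18 (SE 0.17, adjusted p = 2.09e-06, edgeR). A/J was called higher for Mx2, by 0.40 (SE 0.15, adjusted p = 0.049, edgeR). In a fit without the C57BL/6J libraries that difference was −0.01 (adjusted p = 0.978, edgeR), and leaving out any of 24 of the 32 libraries, 1 at a time, also ended the call for A/J. The Igtp calls for DBA/2J (0.74) and SJL (0.73) likewise rested on C57BL/6J, since without that strain they were 0.21 (adjusted p = 0.540, edgeR) and 0.18 (adjusted p = 0.593, edgeR).

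Brown fat had a low strain as well as a high one. In A/J 27 members were lower and none higher (background 18.5% lower), no member lay above 0, and the median was −0.94. By role these were 20 of 21 effectors, 2 of the ISG15 system, 3 sensors, 1 factor and 1 GTPase, and the median was −1.09 for effectors against −0.18 for the 5 GTPases. In SJL 27 members were higher and none lower (background 12.3% higher), all 36 lay above 0, and the median was 0.80. DBA/2J was higher for 9 (background 19.9% higher), and its 1 lower member was Ifi27l2a. Without the 4 libraries holding liver RNA, A/J was lower for 26, SJL higher for 25 and DBA/2J higher for 9. The 5 macrophage markers summed to medians of 91.2 CPM in A/J, 114 in C57BL/6J, 115 in SJL and 174 in DBA/2J, and all 5 were lower in A/J. With the mean log2 level of these markers as a covariate A/J was lower for 20 members (median −0.86), SJL higher for 27 and DBA/2J, whose macrophage sum was the highest, higher for 4.

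Ifit1 and Ifit3 in A/J brown fat lay below all other libraries. Ifit3 ran from 0.882 to 2.55 CPM in A/J (median 1.30), from 4.35 to 10.5 in C57BL/6J (median 5.96), from 3.71 to 12.6 in DBA/2J (median 5.61) and from 4.67 to 10.6 in SJL (median 6.28). A/J was lower by −2.10 (SE 0.19, adjusted p = 1.31e-09, edgeR), and no pair among the other strains was called (adjusted p of 0.417 or more, edgeR). Ifit1 ran from 1.22 to 1.73 CPM in A/J, and the lowest value elsewhere was 3.07, a difference of −1.63 (SE 0.15, adjusted p = 1.30e-09, edgeR). Dhx58, a helicase that regulates Rigi and Ifih1 signalling, ran from 1.72 to 3.53 CPM in A/J and was at 4.05 or more in every other library, a difference of −1.50 (SE 0.12, adjusted p = 7.54e-11, edgeR). Irf7 had medians of 4.18 CPM in A/J (3.42 to 5.88), 8.29 in C57BL/6J (6.62 to 13.9), 9.81 in DBA/2J (7.43 to 19.5) and 17.0 in SJL (9.90 to 27.3). Only A/J stood clear of the rest, at −1.48 (SE 0.16, adjusted p = 1.75e-08, edgeR), and SJL was higher by 1.27 (SE 0.13, adjusted p = 9.85e-09, edgeR). C57BL/6J and DBA/2J overlapped, and their difference was −0.33 (adjusted p = 0.150, edgeR).

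Usp18 had the largest SJL difference of brown fat. The protease removes Isg15 from proteins and restrains the interferon receptor, and its gene ran from 4.76 to 14.5 CPM in SJL (median 8.42), from 2.57 to 5.12 in C57BL/6J (median 3.27), from 2.08 to 7.16 in DBA/2J (median 2.52) and from 1.20 to 2.16 in A/J (median 1.47). SJL was higher by 1.82 (SE 0.15, adjusted p = 5.52e-11, edgeR) and A/J lower by −1.55 (SE 0.18, adjusted p = 1.01e-07, edgeR). Ifi27l2a ran from 214 to 359 CPM in SJL, above every other library, and its median elsewhere was 142 in C57BL/6J, 114 in A/J and 75.6 in DBA/2J. It was higher in SJL by 1.30 (SE 0.16, adjusted p = 2.77e-07, edgeR) and lower in DBA/2J by −0.95 (SE 0.18, adjusted p = 0.00012, edgeR). Bst2 was at 30.6 to 53.6 CPM in SJL, a difference of 1.15 (SE 0.12), although it was not called in SJL muscle. Mx2 (1.37), Oas1a (1.12), Oas2 (1.12) and Ifih1 (1.00) were also higher in SJL, whereas Gbp2, Igtp and Iigp1 were not called. Rsad2 was the only member with its highest mean in C57BL/6J, where it was at 10.9 to 28.6 CPM (median 20.3) against 6.42 to 12.9 in SJL (median 10.1). C57BL/6J was higher by 1.44 (SE 0.18, adjusted p = 2.74e-07, edgeR), and exceeded SJL by 0.98 (SE 0.23, adjusted p = 0.00209, edgeR) in the pairwise test.

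In subcutaneous fat DBA/2J, the high strain of liver, was the low strain. There 20 members were lower (background 20.5% lower), only 4 of 36 lay above 0, the median was −0.48, and the 1 higher member was Xaf1. The lower members were all 4 sensors, 10 of 21 effectors, 2 of the ISG15 system, 2 factors and 2 GTPases. SJL was higher for 9 members and lower for none (background 21.9% higher), with a median of 0.33 and 32 above 0. The 9 SJL calls are a share close to that of all genes. Without the libraries of other tissue, DBA/2J was lower for 17 and SJL higher for 12. Immune cell RNA also differed between the strains. The 3 plasmacytoid dendritic cell markers (Siglech, Ccr9 and Spib) mark the main producers of type I interferon. They summed to medians of 51.3 CPM in DBA/2J, 91.6 in A/J, 108 in SJL and 148 in C57BL/6J, so they were not highest in SJL. All 3 were lower in DBA/2J, and the 5 T-cell markers, at medians of 502 CPM in SJL, 149 in DBA/2J, 243 in C57BL/6J and 244 in A/J, were all higher in SJL. With the mean log2 level of the B-cell and T-cell markers as a covariate DBA/2J was lower for 15 members and SJL higher for 2, and with the macrophage markers for 16 and 4. The SJL count also rested on single libraries, since it was 21 without the A/J Vegan mouse 30, 5 without the SJL American mouse 49 and 14 without the SJL Mediterranean mouse 55.

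Oas3, Oas1g, Zbp1 and Oas1a had the largest differences of DBA/2J subcutaneous fat. Oas1a ran from 5.70 to 10.5 CPM in DBA/2J (median 7.10), from 10.03 to 22.8 in C57BL/6J (median 16.9), from 7.36 to 24.8 in A/J (median 12.2) and from 9.42 to 26.6 in SJL (median 20.6). The DBA/2J range overlapped those of A/J and SJL and its highest library passed the lowest of C57BL/6J, and DBA/2J was lower by −1.06 (SE 0.20, adjusted p = 0.000127, edgeR). Oas1g was at 1.03 to 2.74 CPM in DBA/2J, a difference of −1.45 (SE 0.24, adjusted p = 2.06e-05, edgeR), and Oas3 was lower by −1.56. Zbp1 had a median of 31.8 CPM in C57BL/6J, 25.4 in A/J and 43.3 in SJL, with a DBA/2J range of 14.2 to 34.3, a difference of −1.06 (SE 0.32, adjusted p = 0.00881, edgeR). Mx1 was lower in DBA/2J by −0.91 and higher in C57BL/6J by 0.65 (adjusted p = 0.049, edgeR), a call that leaving out any of 24 libraries, 1 at a time, ended. Isg15 was not called for any strain in this tissue, with medians of 7.76 CPM in DBA/2J, 9.44 in A/J, 10.3 in C57BL/6J and 14.6 in SJL. Stat2 and Gbp2 were not called either.

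Visceral fat showed the same pair of strains at its ends. SJL was higher for 22 members and lower for none (background 8.7% higher), with a median of 0.54 and 35 above 0, where the median of all genes was 0.04. DBA/2J was lower for 23 (background 13.3% lower), with a median of −0.50 and 3 above 0, where the median of all genes was −0.05, and its 1 higher member was again Xaf1. By role SJL was higher for 12 of 21 effectors, 3 of the ISG15 system, 2 factors, 4 sensors and 1 GTPase, and DBA/2J was lower for 14, 3, 2, 2 and 2 of these. Without the 10 libraries of other tissue the counts were 21 for SJL and 20 for DBA/2J. The 5 macrophage markers summed to medians of 585 CPM in SJL, 660 in A/J, 766 in C57BL/6J and 849 in DBA/2J, so the macrophage sum was lowest where the members were highest. With the mean log2 level of these markers as a covariate SJL was higher for 19 and DBA/2J lower for 10, and by limma on TPM values the counts were 13 and 6. The 5 T-cell markers had medians of 12.8 CPM in SJL and 5.14 to 6.72 in the other strains and were all higher in SJL, with 1 library at 471 CPM. With the mean log2 level of the B-cell and T-cell markers as a covariate SJL was higher for 19 (median 0.50) and DBA/2J lower for 24 (median −0.50).

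Oas1g showed both ends in visceral fat. It ran from 0.536 to 0.874 CPM in DBA/2J (median 0.702), from 1.04 to 1.91 in A/J (median 1.68), from 1.56 to 2.74 in C57BL/6J (median 1.76) and from 2.02 to 3.63 in SJL (median 2.85). DBA/2J lay below every other library, at −1.55 (SE 0.13, adjusted p = 4.77e-10, edgeR), and SJL was higher by 1.19 (SE 0.11, adjusted p = 4.13e-09, edgeR). Ifi27l2a ran from 1109 to 1941 CPM in SJL (median 1404), with medians of 564 in C57BL/6J, 641 in A/J and 467 in DBA/2J, and was higher in SJL by 1.39 (SE 0.16, adjusted p = 4.07e-07, edgeR). Irf7 was at 32.1 to 56.4 CPM in SJL (median 43.0) and 16.8 to 25.2 in DBA/2J (median 21.2), with differences of 0.83 (SE 0.12, adjusted p = 1.62e-05, edgeR) and −0.62 (SE 0.13, adjusted p = 0.000959, edgeR). Those 2 strains did not overlap, although 1 C57BL/6J library reached 65.9 CPM. Isg15 (0.71), Oas1a (0.75), Zbp1 (0.85), Bst2 (0.59) and Oas2 (0.56) were higher in SJL, and Mx1, Mx2, Stat2, Igtp and Gbp2 were not called for SJL. C57BL/6J was higher for Rsad2, at 12.2 to 32.4 CPM against at most 13.0 elsewhere, a difference of 0.96 (SE 0.13, adjusted p = 3.07e-06, edgeR). It was also higher for Ifih1 (0.39) and Ifit3 (0.38), the last of which lost its call when 1 library was left out.

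**Figure D4:**
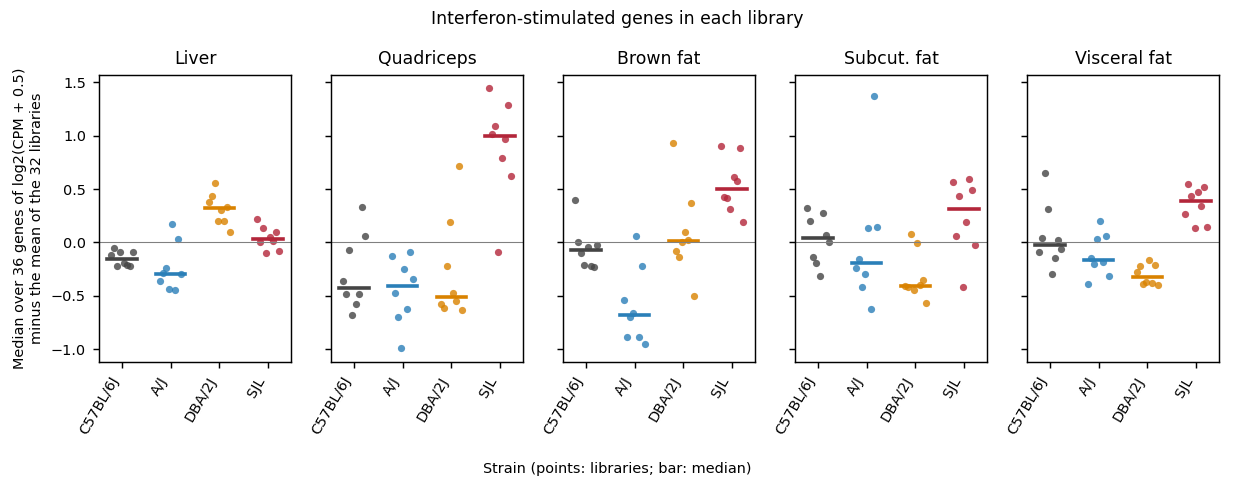
Median over the 36 members of each library's log2(CPM + 0.5) minus the mean of the 32 libraries of its tissue (y axis), 1 point per library by strain and tissue. By median SJL is highest in muscle (−0.09 to 1.45), brown fat (0.19 to 0.91) and visceral fat (0.13 to 0.55), and DBA/2J in liver (0.10 to 0.56). Single libraries reach 0.93 in DBA/2J brown fat, 0.65 in C57BL/6J visceral fat and 1.37 in A/J subcutaneous fat.

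Single libraries did not all follow their strain. The median over members of log2(CPM + 0.5) minus the tissue mean had a median of 0.99 in SJL muscle, but the library of 1 SJL mouse on the Mediterranean diet was at −0.09. In DBA/2J muscle the median was −0.51 and 1 library reached 0.71, the one with Alb at 42.8% of the liver mean, and in A/J subcutaneous fat the median was −0.20 and 1 library reached 1.37, with 35 of 36 members above their A/J mean. In visceral fat DBA/2J (−0.40 to −0.17) and SJL (0.13 to 0.55) did not overlap. Of the 29 mice with all 5 tissues, 3 lay above their strain's mean in all of them and 3 lay below it in all of them.

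Xaf1, a protein that binds the apoptosis inhibitor XIAP, was the only member called higher in DBA/2J in all 5 tissues. The differences were 2.09 in liver, 1.18 in brown fat, 0.92 in subcutaneous fat, 0.85 in muscle and 0.78 in visceral fat, although 20 members were lower in DBA/2J in subcutaneous fat and 23 in visceral fat. In liver it ran from 19.2 to 30.3 CPM in DBA/2J (median 21.9), from 3.02 to 5.73 in C57BL/6J (median 5.02), from 3.84 to 9.13 in A/J (median 4.71) and from 4.38 to 7.18 in SJL (median 6.59), without overlap (SE 0.11, adjusted p = 5.15e-16, edgeR). In brown fat DBA/2J was at 18.0 to 26.9 CPM and SJL at 11.3 to 19.3 (SE 0.11, adjusted p = 3.97e-10, edgeR). In visceral fat the DBA/2J libraries were at 38.4 to 43.0 CPM, above the highest of 34.1 in C57BL/6J, 37.1 in A/J and 37.3 in SJL (SE 0.11, adjusted p = 5.46e-06, edgeR). In muscle DBA/2J (8.99 to 18.0 CPM) and SJL (6.46 to 15.6 CPM) overlapped, and their difference was −0.06 (adjusted p = 0.881, edgeR). The gene lies on chromosome 11 from 72192397 to 72204559 (GRCm39).

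A member was counted as breaking from the group in a tissue where its highest mean was in another strain than that of most members. The strain with the highest mean was DBA/2J for 22 members in liver, and SJL for 34 in muscle, 26 in brown fat, 21 in subcutaneous fat and 28 in visceral fat. Without the libraries holding other tissue SJL was highest for 36 in muscle, 23 in brown fat, 19 in subcutaneous fat and 30 in visceral fat. With all libraries the exceptions in muscle were Ifi35, highest in C57BL/6J, and Iigp1, highest in DBA/2J, and neither gene was called in SJL. Iigp1 spread widely there, from 3.09 to 115 CPM in C57BL/6J and from 15.5 to 177 in DBA/2J. Ifit2 and Iigp1 broke from the group in 4 tissues each, and Rsad2, Xaf1, Ifi35 and Ifih1 in 3. The 11 members that broke in none were Ifit1, Ifit3, Ifit3b, Irf7, Irf9, Isg15, Mx2, Oasl1, Rigi, Rtp4 and Usp18. Ifi44, a protein of uncertain role, was higher in A/J subcutaneous fat at 7.55 to 55.1 CPM (median 15.2), against 5.01 to 9.82 in C57BL/6J (median 6.65), 3.33 to 9.12 in DBA/2J (median 4.87) and 2.91 to 14.0 in SJL (median 9.46). The ranges overlapped, and the difference was 1.47 (SE 0.25, adjusted p = 7.47e-05, edgeR), between 1.14 and 1.61 when each library was left out in turn.

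**Figure D5:**
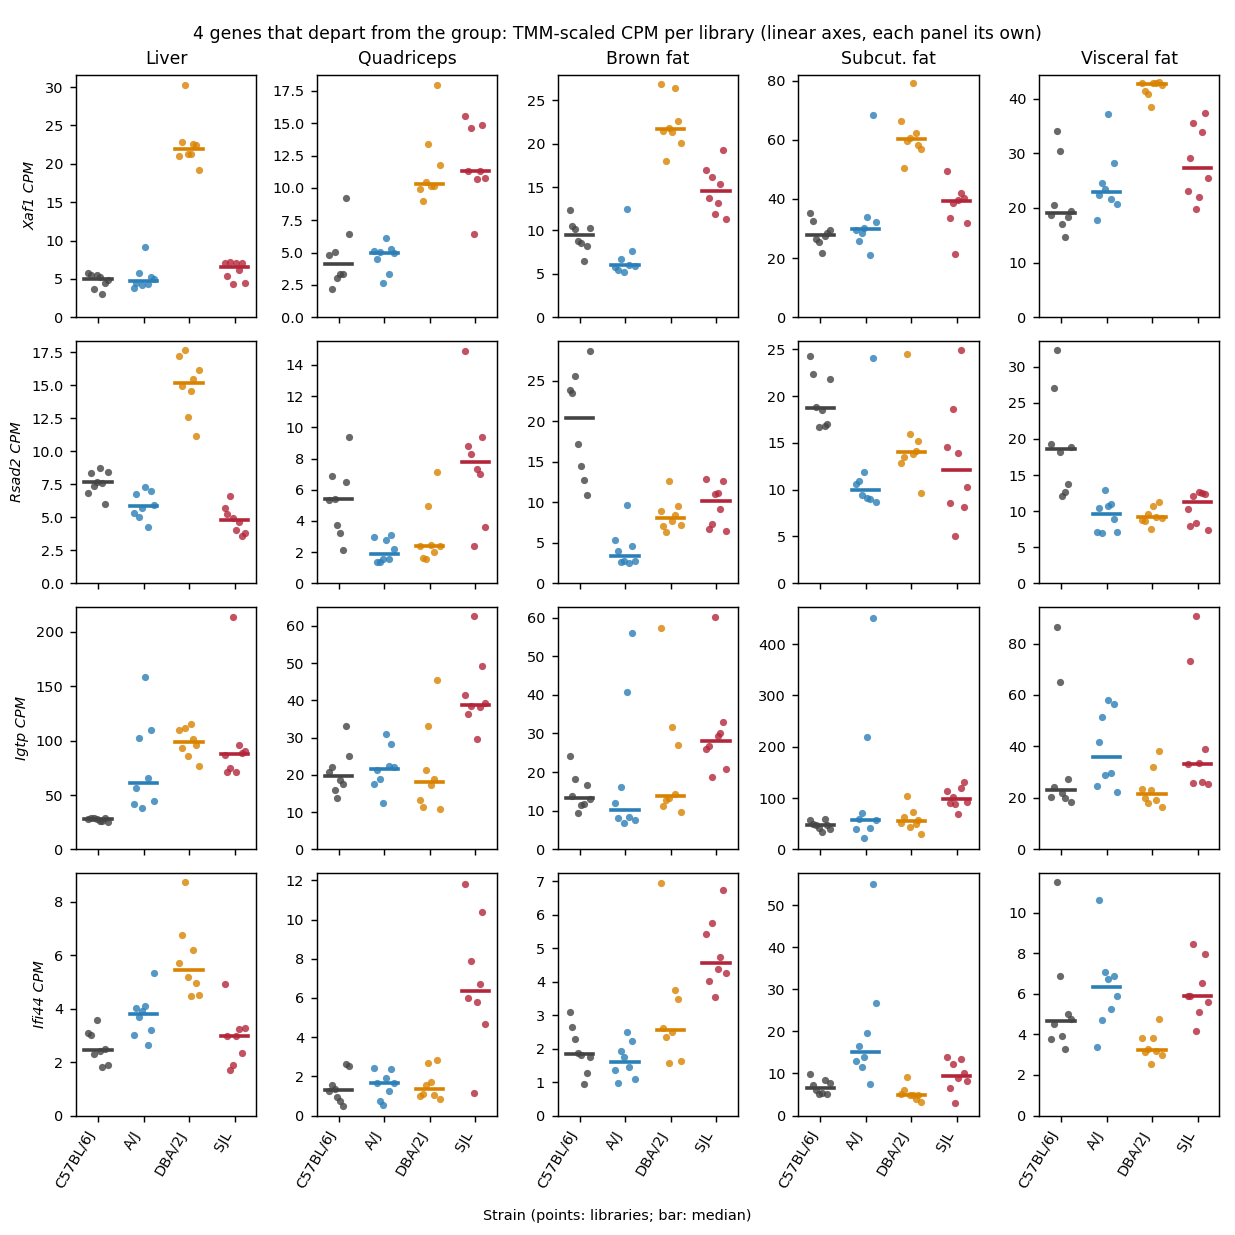
CPM of Xaf1, Rsad2, Igtp and Ifi44 (linear axes, each panel its own) in each library of the 5 tissues by strain. Xaf1 is highest in DBA/2J liver (19.2 to 30.3 CPM), Rsad2 in DBA/2J liver and in C57BL/6J brown and visceral fat, Igtp is lowest in C57BL/6J liver (25.2 to 29.2 CPM), and Ifi44 is high in A/J subcutaneous fat.

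The strain differences depended on the tissue. In 1 fit over 160 libraries, strain by tissue was called for 34 of 36 members, against 72.6% of all genes, and the exceptions were Stat2 (adjusted p = 0.108, edgeR) and Iigp1 (adjusted p = 0.180, edgeR). The smallest adjusted p-values were those of Oas1a (1.35e-18), Ifit3 (9.08e-17), Ifi44 (5.70e-16) and Oasl2 (1.90e-15), by edgeR. Since this fit does not say where the tissues differ, 5 differences between tissues were tested, and these were chosen after the data had been seen. The difference of DBA/2J from the other strains was higher in liver than in subcutaneous fat for 27 members (median 1.06; background 8.11%) and higher than in visceral fat for 22 (median 0.86; background 8.8%). That of SJL was higher in muscle than in liver for 31 (median 1.28; background 10.5%) and higher in muscle than in brown fat for 19 (median 0.56; background 10.2%). That of A/J was lower in brown fat than in subcutaneous fat for 25 (median −1.10; background 7.93%). Without the libraries holding other tissue, strain by tissue was called for 36 members, and the 5 differences for 26, 22, 33, 23 and 23 in the same order.

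Diet was called for no member in any tissue. The background was also low, with 0.102% of all genes called between diets in liver, 0.416% in brown fat and 0% in muscle, subcutaneous and visceral fat. At an unadjusted p under 0.05 the edgeR test counted 3 members in liver, 7 in brown fat, 3 in visceral fat and none in muscle or subcutaneous fat, and DESeq2 counted 3, 8 and 2 in the same tissues and called none. In these tests over 4 diets the smallest adjusted p was 0.120 by edgeR (Oas3, brown fat) and 0.0692 by DESeq2 (Oasl2, brown fat). Of the diets set against American, Mediterranean in brown fat had the most members at an unadjusted p under 0.05, 15 of 36 with a median difference of −0.39, and called none. The share of all genes at this unadjusted cut is not given here, so the unadjusted counts of this paragraph have no background beside them. Oasl2, a ubiquitin-like relative of the Oas enzymes, ran in brown fat from 2.57 to 20.7 CPM on the American diet (median 9.79), 2.48 to 9.20 on the Mediterranean (median 5.47), 3.16 to 10.4 on the Vegetarian (median 7.62) and 2.54 to 10.98 on the Vegan diet (median 6.25). The Mediterranean minus American difference was −0.78 (SE 0.20, adjusted p = 0.0833, edgeR) for Oasl2 and −1.74 (SE 0.46, adjusted p = 0.0843, edgeR) for Oas3. The groups overlapped, and the American value of 20.7 CPM came from 1 DBA/2J mouse. Strain by diet was called for no member either, against 0% of all genes in liver, muscle and subcutaneous fat, 0.0099% in brown fat and 0.392% in visceral fat. At an unadjusted p under 0.05 that test counted 3, 1, 0, 7 and 9 members in liver, muscle, brown, subcutaneous and visceral fat.

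The wider pathway was read from lists of genes that are not members. None of the 21 interferon genes had enough reads to be tested in liver, muscle, brown or visceral fat, and in subcutaneous fat only Ifng, the gene of interferon gamma, did, at a mean of 0.461 CPM in SJL (difference 0.86, adjusted p = 0.0424, edgeR). Of 36 other genes known to be induced by interferon, 26 were higher in SJL muscle (median 0.66; background 20.9%), 17 in SJL brown fat (median 0.41; 12.3%) and 16 in SJL visceral fat (median 0.41; 8.7%). Of the same genes 14 were lower in A/J brown fat (median −0.34; background 18.5%), 19 in DBA/2J subcutaneous fat (median −0.48; 20.5%) and 12 in DBA/2J visceral fat (median −0.31; 13.3%). Without the libraries holding other tissue these counts were 29, 11, 4, 14, 21 and 16, so that of SJL visceral fat rested on them. In DBA/2J liver, where 19 of the 36 members were higher, only 5 of these 36 were (median 0.04), a share close to the background of 14.6%. Beside the same backgrounds, and among the genes that induce or restrain interferon, SJL muscle was higher for 3 of 5 interferon regulatory factors, 6 of 10 induction genes and 4 of 8 brakes. In the same order A/J brown fat was lower for 3, 4 and 2 and DBA/2J subcutaneous fat for 3, 5 and 4, while DBA/2J liver was higher for 0, 0 and 2. Some went the other way, with 3 induction genes higher in A/J brown fat. In DBA/2J liver 1 regulatory factor, 1 induction gene and 4 of the other induced genes were lower. In SJL muscle 1 induction gene and 1 brake were lower, and in DBA/2J subcutaneous fat 1 brake was higher. In the order above, SJL brown fat was higher for 0, 0 and 1 and lower for 0, 1 and 2. SJL visceral fat was higher for 0, 0 and 2 and lower for 1, 0 and 1. DBA/2J visceral fat, where 23 members were lower, was lower for 0, 0 and 0 of these and higher for 2, 2 and 2. Of all genes there, 3602 of 22715 were higher. In SJL muscle the factor Irf8 was higher by 1.03 and Irf1 by 0.57. The nucleic acid receptors Tlr9 (1.99) and Tlr7 (1.50) and the DNA-sensing adaptor Sting1 (1.08) were higher too, and Mavs, the adaptor of the RNA sensors, was lower (−0.29). The feedback inhibitors Socs1 (2.98) and Socs3 (2.37) were also higher in SJL muscle, as were Adar (0.85) and Samhd1 (0.55). Tlr7, Tlr9, Irf8 and Sting1 are expressed by macrophages and dendritic cells, and macrophage RNA was higher in the same libraries. Its part in the differences of these genes was not tested.

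Called members were found both with and without the promoter core. In SJL muscle 18 of the 20 members with the core shown above were called (median 1.27) and 15 of the 16 without it (median 1.24). In A/J brown fat 16 of 20 with the core were lower (median −1.05) and 11 of 16 without (median −0.87). In DBA/2J liver 10 of 20 with the core were higher (median 0.39) and 9 of 16 without (median 0.57), the latter including Xaf1, Irf7 and Cmpk2. These counts describe the lists, and no difference between them was tested.

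Reads shared between similar genes limit what can be said of some members. The deposited counts hold fractions where a read matched more than 1 position, and the value was fractional in 38.1% of libraries for Ifit3 and 33.8% for Ifit3b, 25% for Oas1a and for Oas1g, 56.9% for Usp18, 51.9% for Igtp and 53.8% for Gbp7. The split of reads between such copies is uncertain. Reads of A/J, DBA/2J and SJL were aligned with a looser mismatch penalty than those of C57BL/6J, per the labels, so strain and alignment setting cannot be told apart in comparisons with C57BL/6J. The other 3 strains share a setting.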

How the data were processed

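The 160 libraries came from poly(A) RNA and the TruSeq Stranded mRNA kit, per the labels. Per the submitters' processing notes, FastQC, Trim Galore, HISAT2 and HTSeq were used with the GRCm39 build, with no version stated. Which annotation release and strand setting the counting used is not given in the sources used here. Deposited expected counts (estimated counts per Ensembl gene) are fractional because the authors shared reads with several alignments between positions, per the labels, and 74.4% of non-zero values were whole (tolerance 1e-06). The authors also deposited TPM, which was used for levels between genes and as an alternative. Every column matched 1 sample's description (0 unmatched), and 56236 of 56980 identifiers had a symbol in GENCODE vM39.

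Counts were rounded to whole numbers, filtered with filterByExpr over the 16 strain and diet groups (minimum count 10, minimum total 15), scaled by TMM and tested within a tissue by edgeR 4.0.16 (R 4.3.3; strain plus diet, quasi-likelihood, Benjamini-Hochberg adjustment over all genes tested, threshold 0.05). CPM values use the TMM library sizes. Strain by tissue was tested in 1 fit over 160 libraries with tissue by diet as covariates. The analysis was tested on simulated data. Alternatives were RLE size factors, no filter, a 16-group model, macrophage or lymphocyte markers as a covariate, DESeq2 1.42.0, limma 3.58.1 on log2(TPM + 1) above a mean of 1 TPM, leaving out libraries that held other tissue, the C57BL/6J strain, or single libraries, and a block for the mouse. The mouse numbers pair libraries, since tissues with 1 number come from the same animal. Over 308 such pairs the correlation of deviations from the group means ran from −0.60 to 0.74, with a median of 0.03 and 94 pairs over 0.1.

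The members and lists were chosen with earlier results of these data known. The genes named were Ifit1, Ifit3, Isg15, Oas1a, Oas2, Mx1, Mx2, Irf7, Stat2, Ifi27l2a, Zbp1, Gbp2 and Igtp, up to 6 members per tissue with the largest differences among those called for 1 strain, members called against the direction of most in a strain and tissue, members called between diets, the 4 with the smallest adjusted p for strain by tissue, and up to 3 genes per pathway list with the smallest adjusted p between strains. Some further members were named after their values were seen, to show exceptions. The list of receptor and signalling genes is not reported here.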

Additional observations from a re-analysis of the deposited data

Results flagged for a closer look

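Within each group of 8 libraries of a strain and tissue, the highest and lowest library were compared with their nearest neighbour as a share of the group's range, for the median over members and for the genes described above. Of 204 such groups 27 had a library whose gap was over 0.526 of the range. Chance gives about 1 in 20 groups for independent, normally distributed values, and whether these values are so was not tested. Several of the 27 came from the same library, so they are not independent.

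In subcutaneous fat the A/J Vegan mouse 30 stood above the other A/J libraries in the median over members (1.368 log2 units from the tissue mean), in Ifi44 (55.14 CPM), Zbp1 (156.6 CPM), Oas1a (24.8 CPM) and Isg15 (32.64 CPM). Zbp1 of the DBA/2J Vegetarian mouse 42 (34.33 CPM) stood above its group in the same tissue, as did Oas1g of the DBA/2J Mediterranean mouse 38 (2.74 CPM). In muscle, Irf7 was set apart in 1 library of each strain with low levels, at 18.54 CPM in the C57BL/6J Mediterranean mouse 8, 10.01 CPM in the A/J American mouse 17 and 21.54 CPM in the DBA/2J Vegan mouse 45, and mouse 8 was also apart for Isg15 (4.636 CPM). All 3 of these muscle libraries carried liver RNA. Ifi27l2a of the SJL Vegan mouse 64 (105.8 CPM) was above the other SJL muscle libraries. In visceral fat Oas1g of the C57BL/6J Vegan mouse 13 (2.742 CPM) was above its group. The subcutaneous library of mouse 38 and the visceral library of mouse 13 carried liver RNA too. Their Alb was at 54.4% and 62.2% of the liver mean.

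In brown fat the C57BL/6J American mouse 1 stood above its group in the median over members (0.3992) and in Ifit1 (5.551 CPM), Ifit3 (10.48 CPM) and Irf7 (13.92 CPM). The DBA/2J American mouse 33 stood above its group in Ifit3 (12.62 CPM), Usp18 (7.158 CPM), Dhx58 (10.64 CPM) and Oasl2 (20.7 CPM), and the A/J Vegetarian mouse 25 in Rsad2 (9.609 CPM), Xaf1 (12.5 CPM) and Oasl2 (7.697 CPM). In liver, Xaf1 was apart in the A/J Vegetarian mouse 25 (9.127 CPM) and the DBA/2J Mediterranean mouse 38 (30.27 CPM), and Igtp in the SJL Mediterranean mouse 54 (213.8 CPM).

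The effect of strain differed between tissues by a test of the difference itself for 34 members over all tissues. Between named tissues it differed for 27 members (DBA/2J, liver against subcutaneous fat), 22 (DBA/2J, liver against visceral fat), 31 (SJL, muscle against liver), 20 (SJL, muscle against brown fat, 1 of them lower in muscle) and 25 (A/J, brown against subcutaneous fat).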

How the results depend on the processing

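Counts of members stayed within 1.5 times of those reported under RLE size factors, no filter, DESeq2 and the fits without C57BL/6J or without the libraries holding other tissue. The macrophage covariate gave 17 in place of 31 for the strain test in muscle, 11 in place of 33 for SJL in muscle, 4 in place of 9 for SJL in subcutaneous fat and 10 in place of 23 for DBA/2J in visceral fat. The lymphocyte covariate gave 2 and the 16-group model 14 for SJL in subcutaneous fat. Limma on TPM gave 16 in place of 28 for the strain test in visceral fat, 13 in place of 22 for SJL and 6 in place of 23 for DBA/2J there, and 3 for SJL in subcutaneous fat. The share of all genes called in these fits is not given here, and the cause was not tested.

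Leaving out 1 library at a time, the strain test called 25 to 30 members in liver, 29 to 33 in muscle, 31 to 34 in brown fat, 14 to 29 in subcutaneous fat and 26 to 29 in visceral fat, and the diet test 0 to 0 in each tissue. SJL was higher for 32 to 33 in muscle, 24 to 32 in brown fat, 5 to 21 in subcutaneous fat and 19 to 26 in visceral fat. A/J was lower for 26 to 31 in brown fat. DBA/2J was higher for 16 to 23 in liver and lower for 16 to 21 in subcutaneous and 19 to 24 in visceral fat.

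With the mouse as a replicate block, strain by tissue was called for 34 members, and the differences between tissues for 29, 22, 31, 21 and 27 in the order given above. No paired analysis was possible within a tissue because each mouse gave 1 library there.

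Of 141 called differences of named members, DESeq2 and RLE size factors ended none, the 16-group model 3, no filter 9, the fit without other tissue 10, the lymphocyte covariate 16, limma on TPM 17 and the macrophage covariate 38. Without C57BL/6J 8 of 119 calls ended and 1 changed sign, that of Mx2 in A/J liver, at −0.0074 (adjusted p = 0.978, edgeR). Over all fits that left out 1 library, 4390 calls held and 122 ended, among them Mx2 in A/J liver, Mx1 in C57BL/6J subcutaneous fat, Oas1a in DBA/2J liver and Ifi44 in SJL liver. Low counts limit Oas3 and Oas1g, and 2 mice per strain and diet limit the tests of diet.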

Other observations

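Ifi44l, a relative and chromosome 3 neighbour of Ifi44 that is not a member, was detected in all 8 A/J libraries of every tissue and was near 0 elsewhere. It ran in A/J from 5.69 to 29.6 CPM in subcutaneous fat (median 9.76), 1.42 to 3.22 in liver (median 2.38), 0.519 to 3.45 in visceral fat (median 2.50), 0.442 to 1.49 in muscle (median 0.695) and 0.259 to 0.940 in brown fat (median 0.598). In liver all 24 libraries of the other strains had 0 counts, and against a floor of 3 counts per library (at most 0.161 CPM) the A/J mean was at least 14.5-fold higher. The highest value in another strain was 3.60 CPM, in 1 DBA/2J brown fat library, and the next was 0.451 CPM, in SJL brown fat. The member Ifi44 was called higher in A/J only in subcutaneous fat (1.47) of the 5 tissues, was lower there in brown fat (−0.85), and had reads in every strain. Ifi44l lies at 151464374 to 151468529 and Ifi44 at 151436559 to 151455625 on chromosome 3 (GRCm39), and Ifi44 had no fractional counts in any library.

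Of the 29 mice with all 5 tissues, the median over members lay above the strain's own mean in all 5 tissues in the A/J mice 25 and 30 and the SJL mouse 63, and below it in all 5 in the A/J mouse 27, the DBA/2J mouse 48 and the SJL mouse 64. The SJL mouse 54, whose muscle library was lowest of its strain (−0.97 from the strain mean), had the highest Igtp of its strain in liver.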
